A study of Mus musculus with 6 samples.

Results

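The miR-199 and miR-214 microRNAs (miRNAs) were followed across the 3 maturation zones of mouse growth plate cartilage. The 5 members were taken by name from the array annotation: mmu-miR-199a-5p, mmu-miR-199a-3p, mmu-miR-199b*, mmu-miR-214 and mmu-miR-214*, of 690 mouse miRNAs on the array (the mouse prefix is dropped from here on). In the older naming of the array, an asterisk marks the arm of a hairpin that was thought to be the less abundant, so that miR-199b* is the 5p arm of the miR-199b hairpin, miR-214 is the 3p arm of its hairpin and miR-214* the 5p arm. RNA came from femoral growth plates of C57BL/6 mice aged 12 days, with no treatment or engineered allele named, separated by microdissection into the proliferative, prehypertrophic and hypertrophic zones. Each zone had 2 one-colour arrays (6 in all), each hybridised with 100 ng of RNA pooled from 5 growth plates. The labels do not say which animals entered which pool, so that the spread between arrays may in part be technical.

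A miRNA hairpin is cut out of a longer transcript and trimmed to a short duplex, of which one strand, the 5p or the 3p arm, is usually kept to silence messenger RNAs that pair with its seed (bases 2 to 8). miR-199a-2 and miR-214 are cut from the noncoding transcript Dnm3os, which the transcription factor Twist1 switches on in mesenchyme, and mice without Dnm3os grow poorly and have skeletal defects. In mouse cell lines miR-199a-3p has been described as a brake on early chondrogenesis through Smad1, and miR-214 as an inhibitor of osteoblast activity through Atf4.

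The sequences are shown because they decide what a probe can tell apart. RefSeq (GRCm38.p6) gave mature sequences for 4 of the 5 members, printed here with the seed in capitals. miR-199b-5p, the present name of miR-199b*, is named only.
miR-199a-5p: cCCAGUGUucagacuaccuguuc
miR-199a-3p: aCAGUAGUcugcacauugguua
miR-199b-3p: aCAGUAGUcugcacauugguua
miR-214-3p: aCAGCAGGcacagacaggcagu
miR-214-5p: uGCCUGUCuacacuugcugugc
miR-761: gCAGCAGGgugaaacugacaca
miR-199a-3p and miR-199b-3p are the same molecule, so the array's miR-199a-3p signal sums what all 3 miR-199 hairpins release. Among the RefSeq mature miRNAs, the seed of miR-214-3p is shared by miR-761 alone, and miR-761 was well above background on 0 of the 6 arrays. That of miR-214-5p was found in no other mature entry. The seed of miR-199a-5p also stands in the Mir199b hairpin (chr2:32318485-32318507, plus strand, the closest stretch of the same length). That stretch differs from miR-199a-5p by 1 base, C10U, counted from the 5′ end of miR-199a-5p. The extent to which the probes for miR-199a-5p and miR-199b* tell these arms apart was not tested, so their values may not be independent.

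The hairpins lie at 3 places in the genome, each inside a dynamin gene and on the strand opposite to it. Mir199a-2 (chr1:162217814-162217923, plus strand) and Mir214 (chr1:162223368-162223477, plus strand) are separated by 5444 bases, and both lie within Dnm3os, which runs antisense inside Dnm3. Mir199a-1 (chr9:21496495-21496564, minus strand) lies inside Dnm2, and Mir199b (chr2:32318460-32318569, plus strand) inside Dnm1. The 2 hairpins of Dnm3os are given to show both arms, which are in capitals.
Mir199a-2: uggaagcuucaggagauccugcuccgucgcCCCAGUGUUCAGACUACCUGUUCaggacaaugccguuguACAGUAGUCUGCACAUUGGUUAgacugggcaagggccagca
Mir214: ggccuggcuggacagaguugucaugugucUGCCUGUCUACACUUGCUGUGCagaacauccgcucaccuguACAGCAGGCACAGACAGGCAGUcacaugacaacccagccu
Mature miR-199a-5p is identical from Mir199a-1 and Mir199a-2, so no miR-199 probe reports on the Dnm3os locus alone, whereas miR-214 has this 1 hairpin in RefSeq.

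Of the 5 members, 4 were well above background on all 6 arrays, and the same 4 passed the filter on dim miRNAs. The exception was miR-214*. None of its 116 usable spots, from 4 probes over the 6 arrays, was well above background, and its mean signal per probe and array lay between -5.60 and -0.79 brightness units after background subtraction. It is given as not well above background, with no level, no fold and no arm ratio for the miR-214 hairpin. The other 4 members had 2 probes each, with 10 spots per probe on each array, and 7 of these 8 probes were well above background on all arrays. The brightest probe of each miRNA was used. Values are scaled signals: spot brightness divided by the array's 75th percentile over the 342 probes well above background everywhere, times the geometric mean of those percentiles. Affinities differ between probes, so levels were compared across zones for the same probe and not between members. The first and second arrays of a zone are not pairs across zones. Their sample title numbers, in that order, are 13 and 16 (proliferative), 14 and 17 (prehypertrophic) and 18 and 15 (hypertrophic).

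On the 2 arrays of each zone in turn, miR-199a-5p had scaled signals of 139 and 108 in the proliferative, 127 and 127 in the prehypertrophic and 58.0 and 96.1 in the hypertrophic zone. Both hypertrophic arrays were the dimmest, and the prehypertrophic pair lay between the proliferative arrays. For miR-199a-3p the scaled signals were 752 and 478 in the proliferative, 623 and 662 in the prehypertrophic and 359 and 424 in the hypertrophic zone. Again both hypertrophic arrays were below all others, with the second proliferative array only a little above them. miR-199b*, the 5p arm of the remaining hairpin, had 377 and 276 in the proliferative, 316 and 288 in the prehypertrophic and 144 and 201 in the hypertrophic zone. Its hypertrophic arrays were clear of the other 4. miR-214 had 143 and 140 in the proliferative, 99.4 and 126 in the prehypertrophic and 78.3 and 90.7 in the hypertrophic zone. By its brightest probe, it was the member for which no array of one zone overlapped an array of another. Its other probe had 27.1 and 27.6 in the proliferative, 18.1 and 27.7 in the prehypertrophic and 16.6 and 20.2 in the hypertrophic zone. By that probe the prehypertrophic arrays overlapped both other zones. How many of all tested miRNAs separate all zones was not counted.

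**Figure D1:**
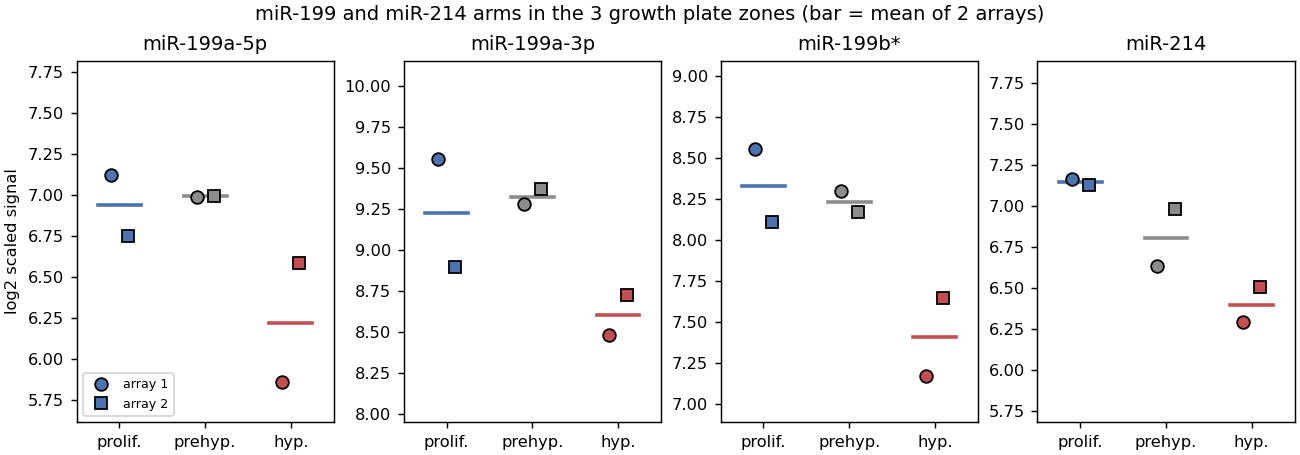
Log2 scaled signal (y axis) of the 4 measured arms on the 2 arrays (points) of each zone (x axis, in order of maturation), with bars at the mean of the 2 arrays and each panel spanning the same log2 range. The hypertrophic arrays are the lowest in every panel, and the prehypertrophic mean of miR-214 (6.81) lies between its proliferative (7.14) and hypertrophic (6.40) means.

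These signals were precise within an array. For the brightest probes the spot-to-spot coefficient of variation was 3.90% to 7.73% for miR-199a-3p, 3.60% to 6.90% for miR-199b*, 6.07% to 14.7% for miR-199a-5p and 7.44% to 15.2% for miR-214. The gap between the proliferative arrays for miR-199a-3p, 752 against 478, is far larger than that spread between spots, so the difference between arrays of one zone sets the error here.

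The comparison of the hypertrophic with the proliferative zone asked how the miRNAs differ at the 2 ends of chondrocyte maturation. miR-199b* had a log2 signal of 7.41 ± 0.34 in the hypertrophic and 8.33 ± 0.32 in the proliferative zone (SD, n = 2 each), a log2 difference of -0.92 (95% interval -1.55 to -0.30, limma adjusted p = 0.0513). miR-214 had 6.40 ± 0.15 in the hypertrophic and 7.14 ± 0.02 in the proliferative zone (SD, n = 2 each), a difference of -0.75 (-1.32 to -0.18, limma adjusted p = 0.0755). miR-199a-5p had 6.22 ± 0.51 in the hypertrophic and 6.94 ± 0.26 in the proliferative zone (SD, n = 2 each), a difference of -0.72 (-1.38 to -0.05, limma adjusted p = 0.152). miR-199a-3p had 8.61 ± 0.17 in the hypertrophic and 9.23 ± 0.46 in the proliferative zone (SD, n = 2 each), a difference of -0.62 (-1.25 to 0.01, limma adjusted p = 0.199). In linear terms the hypertrophic signal was 0.53 to 0.65 times the proliferative one.

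None of the 4 passed the threshold of 0.05, against 14.6% of the 226 tested miRNAs that passed in either direction (limma) and 8.85% that passed as lower. At an unadjusted p under 0.05, 3 of the 4 were lower, against 17.3% of all tested miRNAs as lower and 26.5% in either direction. For 4 of the 4, both hypertrophic arrays lay below both proliferative arrays, which held for 27% of all tested miRNAs, while the opposite order held for 19.9%. The median log2 difference of the 4 was -0.73 and that of all tested miRNAs -0.00. The tissue was measured in bulk, so fewer cells carrying these miRNAs and less of them per cell cannot be told apart.

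The missed threshold depended on single choices, miR-199b* being the closest to it. It passed in 6 of 23 other settings (its 2 probes taken singly count as 2), with log2 differences of -1.16 to -0.44 and adjusted p values of 0.0232 to 0.443 over all of them (limma). These included a fit with the runs of title numbers as a block (adjusted p = 0.0261) and one with the slide row as a block (log2 difference -1.15, adjusted p = 0.0402). miR-199a-3p passed with the row as a block (-0.95, limma adjusted p = 0.0402). For this contrast the row block is the same comparison as leaving out the second proliferative array, the only one of these 4 in row 2, so the 2 settings give 1 result, also among the 6 for miR-199b*. Without the first proliferative array the difference of miR-199a-3p was -0.29. miR-214 passed in 1 of 23 settings and miR-199a-5p in none. Within the 2 runs of consecutive title numbers, the hypertrophic minus proliferative differences were -0.91 and -0.94 for miR-199b*, -0.66 and -0.84 for miR-214, -0.54 and -0.89 for miR-199a-5p and -0.83 and -0.41 for miR-199a-3p.

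At the first step of maturation, the prehypertrophic against the proliferative zone, the miR-199 arms lay close together. The log2 difference was 0.05 for miR-199a-5p (95% interval -0.61 to 0.72), 0.10 for miR-199a-3p (-0.53 to 0.73) and -0.10 for miR-199b* (-0.72 to 0.53), with limma adjusted p values of 0.921 to 0.981. These intervals still allow changes of more than 0.5 log2 units either way. miR-214 differed by -0.34 (-0.91 to 0.23, limma adjusted p = 0.664), with 6.81 ± 0.24 in the prehypertrophic and 7.14 ± 0.02 in the proliferative zone (SD, n = 2 each). None of the 4 passed, against 2.21% of the tested miRNAs in either direction (limma), and 0 had an unadjusted p under 0.05, against 12.8% of the tested miRNAs in either direction and 5.75% as lower. Both prehypertrophic arrays lay below both proliferative arrays for 1 of the 4, miR-214, and for 24.3% of all tested miRNAs, while both were above for 0 of the 4 and 11.9% of all. The sign of the miR-199b* difference changed with the scaling (0.02 when all probes set the 75th percentile, 0.04 with median scaling and 0.24 without scaling). These scalings moved the median of all tested miRNAs by 0.12, 0.13 and 0.30 in turn.

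At the second step, the hypertrophic against the prehypertrophic zone, the log2 difference was -0.83 for miR-199b* (95% interval -1.45 to -0.20), -0.77 for miR-199a-5p (-1.43 to -0.11), -0.72 for miR-199a-3p (-1.35 to -0.09) and -0.41 for miR-214 (-0.98 to 0.16), with limma adjusted p values of 0.228, 0.256, 0.256 and 0.34. Both hypertrophic arrays were below both prehypertrophic arrays for 4 of the 4, as for 32.7% of the tested miRNAs, with the opposite order in 34.1%. None passed, against 1.33% in either direction and 0% as lower (limma). At an unadjusted p under 0.05, 3 of the 4 were lower, against 6.64% of all as lower and 15% in either direction. The median over the 4 was -0.75, against -0.03 over all tested miRNAs. This comparison shares its hypertrophic arrays with the first one. The hypertrophic pair also came from slide row 1 and the prehypertrophic pair from row 2, so zone and row cannot be told apart here except through the proliferative pair, split between the rows. Whether the 3 miR-199 arms and miR-214 follow different courses over the zones was not tested.

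**Figure D2:**
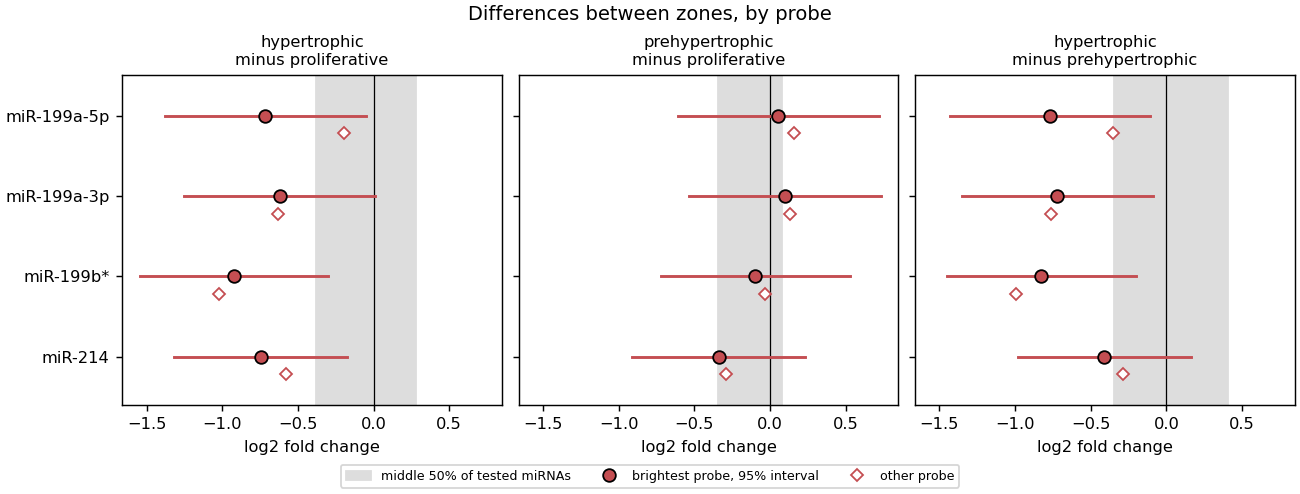
Log2 fold change between zones (x axis) of each measured arm (y axis) by its brightest probe (filled, with the 95% interval from limma) and its other probe (open), with the span between the quartiles of the 226 tested miRNAs shaded. The filled points lie left of the shaded band in the outer 2 panels (-0.92 to -0.62 for hypertrophic minus proliferative, -0.83 to -0.41 for hypertrophic minus prehypertrophic), and 0 of the 4 passed the threshold.

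The second probe of each member gave the same direction between the outer zones. For hypertrophic minus proliferative it gave -1.02 for miR-199b*, -0.63 for miR-199a-3p, -0.58 for miR-214 and -0.20 for miR-199a-5p, none with a limma adjusted p under 0.05 among 446 probes. The other probe of miR-199a-5p was dim: it had scaled signals of 15.6 and 13.5 in the proliferative, 15.2 and 17.2 in the prehypertrophic and 7.48 and 11.5 in the hypertrophic zone, where both values lay under the floor of 12.7 and were raised to it. Its small difference is therefore limited by the floor.

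The balance of the 2 arms of miR-199a was read as the log2 difference of miR-199a-5p minus miR-199a-3p within each array, which is free of the array's scaling. Its absolute size reflects the probes as well as the arms and says nothing by itself. It was -2.43 and -2.15 in the proliferative, -2.29 and -2.38 in the prehypertrophic and -2.63 and -2.14 in the hypertrophic zone. The zone means, -2.29, -2.33 and -2.38 in that order, differed by less than the SD of 0.23 between arrays of one zone, and all zones overlapped. The hypertrophic minus proliferative shift of the arm balance was -0.09. It lay between -0.17 and 0.00 under 7 other treatments of the signal. Of these, the raised and the lowered floor could not move it, and the total signal and the deposited table gave the same value. The shift was 0.15 when the first hypertrophic array was left out and -0.34 when the other was, so the hypertrophic pair limits it. With the other, dim probe of miR-199a-5p the shift was 0.42 and 0.43 against the 2 probes of miR-199a-3p, with an SD of 0.21 and 0.16. Its sign is opposite, and the dim probe was raised to the floor on both hypertrophic arrays, which lifts this ratio there.

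Against the shared 3p arm, miR-199b* had a within-array log2 difference of -0.998 and -0.790 in the proliferative, -0.98 and -1.20 in the prehypertrophic and -1.31 and -1.08 in the hypertrophic zone. The hypertrophic and proliferative arrays did not overlap, and the shift of -0.30 exceeded the SD of 0.16 between arrays of one zone. How often such ratios separate over all pairs of tested miRNAs was not counted. Among single tested miRNAs, 27% had both hypertrophic arrays below both proliferative arrays. Against miR-199a-5p the shift of miR-199b* was -0.21 with an SD of 0.12. The neighbour in Dnm3os, miR-214, set against miR-199a-3p, had -2.39 and -1.77 in the proliferative, -2.65 and -2.39 in the prehypertrophic and -2.19 and -2.22 in the hypertrophic zone. Its shift between hypertrophic and proliferative arrays was -0.13, within the SD of 0.27, and that between prehypertrophic and proliferative arrays was -0.44. With 2 arrays a zone, these ratios are a description without a test.

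**Figure D3:**
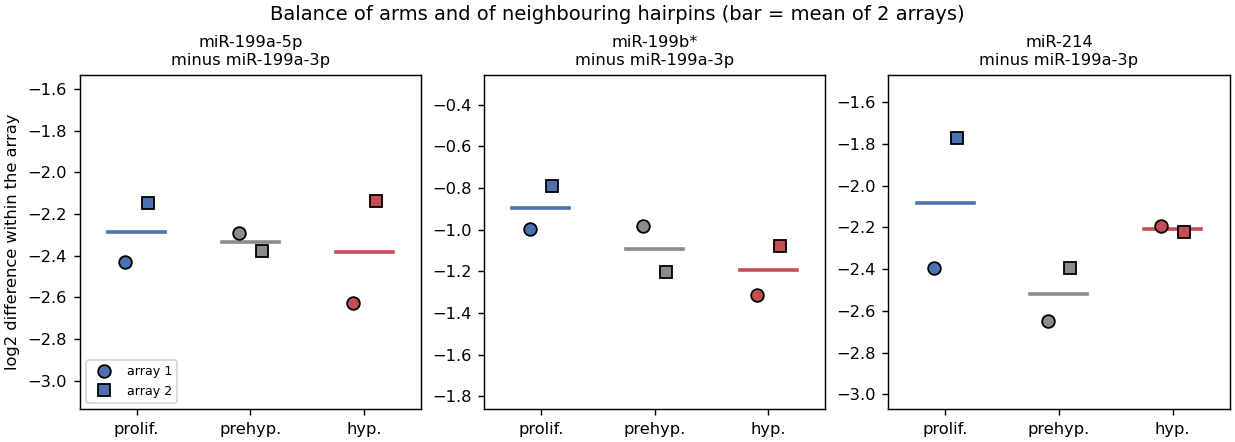
Log2 difference of 2 members within each array (y axis) by zone (x axis), with points for the 2 arrays and bars for their mean. The miR-199a arms have zone means of -2.29 to -2.38. miR-199b* against the 3p arm has means of -0.89 in the proliferative and -1.20 in the hypertrophic zone. These differences were not tested.

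Over the 6 arrays the members moved together, the 3 miR-199 arms most closely. Pearson correlations of log2 signal were 0.92 to 0.96 among miR-199a-5p, miR-199a-3p and miR-199b*, and 0.72 to 0.83 between miR-214 and each of them. The 6 points share their arrays and scaling, so these values only describe them. Of 222 other tested miRNAs, the one most like the mean of the 4 members was miR-140, the miRNA most specific to chondrocytes, at r = 0.97. miR-98 (0.97), let-7d (0.96), miR-221 (0.96) and let-7f (0.96) came next. The 3 least alike were miR-2137 (-0.98), miR-135a* (-0.97) and miR-2138 (-0.96). In all, 16 of the 222 miRNAs (7.21%) had r above 0.9, and the median r was -0.20.

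miR-140 had log2 signals of 11.3 and 10.5 in the proliferative, 10.8 and 10.8 in the prehypertrophic and 9.94 and 10.3 in the hypertrophic zone. Relative to miR-140 on the same array, the hypertrophic minus proliferative shift was 0.05 for miR-199a-5p, 0.14 for miR-199a-3p, -0.16 for miR-199b* and 0.01 for miR-214. The SD between arrays of one zone was 0.19, 0.08, 0.12 and 0.32 for these in turn. For miR-199a-3p the values were -1.46 and -1.62 in the hypertrophic and -1.71 and -1.65 in the proliferative zone, which did not overlap. The nearest, -1.62 and -1.65, lay close together, and with the other probe of miR-199a-3p these zones overlapped. How many of all tested miRNAs separate in this way against miR-140 was not counted. For miR-199b* the values were -2.77 and -2.70 in the hypertrophic and -2.71 and -2.44 in the proliferative zone, which overlapped. Its shift therefore rests on the second proliferative array. The hypertrophic minus proliferative difference of miR-140 itself was -0.76 (limma adjusted p = 0.130). This comparison was chosen after the correlations were seen. Of the 222 miRNAs compared, miR-140 was the most correlated with the members' mean on these same arrays. Small shifts against it therefore follow in part from that choice.

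**Figure D4:**
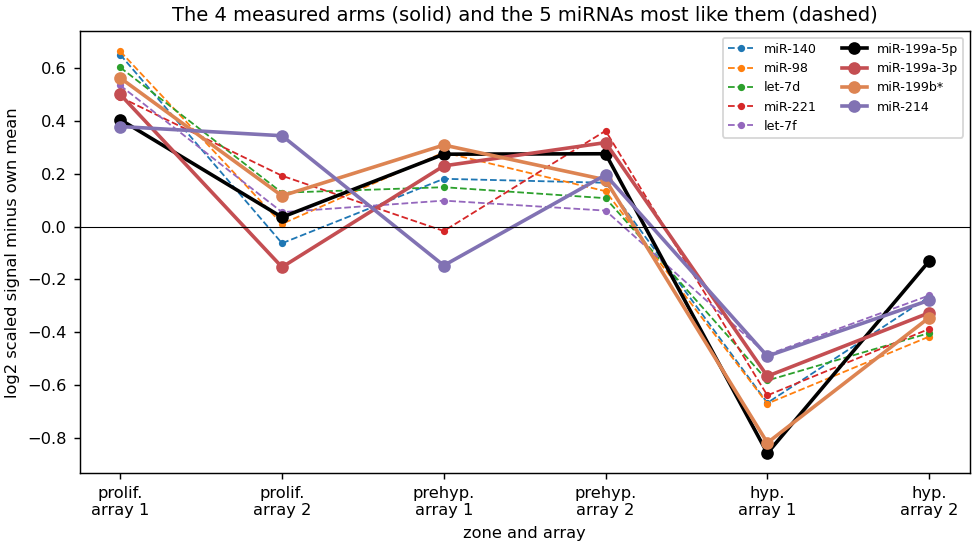
Log2 scaled signal minus the miRNA's own mean over the 6 arrays (y axis) on each array (x axis), for the 4 measured arms (solid lines) and the 5 miRNAs with the highest correlation to their mean (dashed lines). All 9 lines are below 0 on both hypertrophic arrays, and the first proliferative array is the highest for miR-140, miR-98, let-7d, miR-221 and let-7f.

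Other miRNAs linked to mesenchyme were called in both directions. In a list of 15 such miRNAs, 8 were tested. Between the hypertrophic and proliferative zones 2 rose (miR-21 and miR-22) and 2 fell (let-7b and let-7c) by limma, 4 of 8 in all. Over all tested miRNAs 14.6% passed in either direction, 8.85% as lower and 13 of 226 as higher. The list median was -0.14, against -0.00 over all. Between the prehypertrophic and proliferative zones 1 rose, miR-22, against 2.21% of all tested miRNAs called in either direction. Between the hypertrophic and prehypertrophic zones 0 passed, against 1.33% of all. The list medians were 0.08 and -0.37 in turn, against -0.14 and -0.03 over all tested miRNAs. The remaining 7 were well above background on no array. They included miR-143 and miR-145, the defining miRNAs of smooth muscle and pericytes, as well as miR-10a, miR-10b, miR-31, miR-218 and miR-335-5p. The summed scaled signal of this list lay at 6192 to 7800 in the proliferative, 5650 to 5993 in the prehypertrophic and 4174 to 4598 in the hypertrophic zone. Such sums, here and below, add probes that differ in affinity, so the brightest miRNAs weigh most in them.

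Some cell type markers differed between the same zones. Of 8 cartilage miRNAs, miR-140 and miR-140* among them, 7 were tested. Their median log2 difference between hypertrophic and proliferative zones was -0.76, against -0.00 over all tested miRNAs. By limma 1 was higher and 1 lower past the threshold. Of all tested miRNAs, 14.6% passed in either direction, 8.85% as lower and 13 of 226 as higher. The cartilage miRNAs called were miR-675-3p and miR-193b, while miR-140 (limma adjusted p = 0.130) and miR-140* (limma adjusted p = 0.0534) did not pass. The summed scaled signal of the 8 cartilage miRNAs was 6527 to 10451 in the proliferative, 6909 to 7018 in the prehypertrophic and 3998 to 5008 in the hypertrophic zone. Most of this sum came from miR-140 and miR-140*, which had 2459 and 7050 on the first proliferative array. The 8 blood and marrow miRNAs summed to 27.0 to 42.8 in the proliferative, 45.2 to 47.8 in the prehypertrophic and 266 to 290 in the hypertrophic zone. Of these 8, 2 were well above background on both hypertrophic arrays and 0 on both proliferative arrays. miR-451, a miRNA of red blood cells, had scaled signals of 226 and 254 in the hypertrophic and 13.8 and 9.77 in the proliferative zone, while miR-155, miR-150, miR-144 and both arms of miR-142 stayed in the background throughout. For endothelium, miR-126-3p had scaled signals of 34.7 and 47.2 in the hypertrophic zone and values below 0 on the other 4 arrays. Its partner miR-126-5p stayed in the background throughout. The part that these markers have in the lower hypertrophic values of the miR-199 and miR-214 arms was not tested.

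The skeletal muscle, epithelium and nerve lists had 1 of 6, 2 of 7 and 0 of 4 miRNAs tested, with 0 past the limma threshold in any comparison. Their summed scaled signals in the hypertrophic zone were 118 to 120, 46.3 to 64.7 and 3.06 to 24.7. In the proliferative zone they were 157 to 165, 70.4 to 71.9 and 0.98 to 36.6. In the muscle list miR-1, miR-133a, miR-133b, miR-206 and miR-499 were well above background on no array, which leaves miR-208b. In the epithelium list miR-200a, miR-200b, miR-200c, miR-141 and miR-203 were so on none, which leaves miR-429 and miR-205. In the nerve list miR-9, miR-128 and miR-137 were so on none, which leaves miR-124.

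Every hypertrophic minus proliferative difference of the 4 members stayed negative under each scaling, but its size did not. Without scaling, the median of all tested miRNAs moved up by 0.46 and the members' median was -0.25, which is -0.70 relative to all tested miRNAs. With median scaling all miRNAs moved by 0.11 and the members' median was -0.62. With normexp background correction the members' median was -0.47, which is -0.30 relative to all tested miRNAs, against -0.73 relative to all in the reported setting. This correction also adds an offset of 50 to each spot, and the part of the offset in the smaller median was not tested. In the authors' deposited log2 table the members' median was -0.78.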

How the data were processed

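Levels of 690 miRNAs were read from 6 one-colour (Cy3) Agilent mouse arrays designed from miRBase version 14. Spot intensity, per the file headers, was deposited as the background-subtracted signal of Feature Extraction 10.7.3.1. The authors also deposited a log2 table, which matched the log2 total miRNA signal less 1 constant for each array, with departures of at most 1.28e-06. It served as an alternative.

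Control spots and spots flagged as outliers (384 to 515 of 13800 per array) were left out, and 0 spots were saturated. Between 24.2% and 27.9% of spots per array were well above background. Spots of a probe were averaged and scaled to the 75th percentile over the 342 of 1928 probes well above background on all arrays. A floor of 12.7 scaled units (the median over arrays of the lowest signal well above background) was set, and log2 was taken. The brightest probe stood for a miRNA. Tests covered the 226 miRNAs for which 1 zone or more had both arrays well above background. Contrasts were fitted over all 6 arrays with limma 3.58.1 (R 4.3.3, prior degrees of freedom 7.83, residual 3), with Benjamini-Hochberg adjustment within each contrast and a threshold of 0.05. The fit was run on simulated data, where only changes larger than those of the members had to be recovered. How often it finds changes of the members' size is not given. The number of arrays limits the precision.

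The title numbers form 2 runs, 13 to 15 and 16 to 18, each with 1 array per zone. No label calls a run a batch. The members, lists and alternatives were chosen with earlier results of these data known. The rule for naming took all members, the 5 most and 3 least correlated miRNAs, miR-140, miR-140*, miR-143 and miR-145, and listed counts. Any other miRNA was named after its values were seen. The files hold no mean spot signal, so the normexp alternative used median signals.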

Additional observations from a re-analysis of the deposited data

How the results depend on the processing

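The number of members past the threshold for hypertrophic minus proliferative was 0 in 16 of 22 other settings. It was 2 with normexp background (miR-199b* and miR-214), 2 with the slide row as a block, 1 with the run of title numbers as a replicate block, 1 with the floor lowered 2-fold and 1 among miRNAs well above background on all arrays. With single arrays left out it ranged from 0 to 2, being 2 without the second proliferative array, which for this contrast is the same comparison as the row block. In the other 2 contrasts it was 0 in 22 of 22 settings each. Every log2 difference of the 4 members stayed negative in both contrasts that hold the hypertrophic zone, in 23 of 23 settings each. Many of these settings could not turn a sign. The other floors, the filters, the run block and leaving out an array of the third zone left the brightest probe's difference as it was. Both hypertrophic arrays lay below all others, so leaving out any single array could not turn it either.

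For prehypertrophic minus proliferative, signs turned for differences near 0. For miR-199b* the value was 0.0248 when all probes set the 75th percentile, 0.0384 with median scaling, 0.24 without scaling, 0.11 in the deposited log2 table and 0.13 with the row as a block. Leaving out single arrays gave -0.32 to 0.13 for miR-199b*, -0.13 to 0.24 for miR-199a-5p and -0.23 to 0.43 for miR-199a-3p. For miR-214 it was 5.70e-05 without scaling. The shift of the miR-199a arm balance between hypertrophic and proliferative arrays ranged from -0.34 to 0.15 with single arrays left out. The number of all miRNAs called for hypertrophic minus proliferative was 33, against 11 when all probes set the percentile, 12 with median scaling, 19 with quantile normalization, 15 without scaling, 8 with the floor raised 2-fold, 17 with the mean of the probes, 20 in the deposited table, 1 without a filter, 40 with the floor lowered 2-fold, 40 with every probe on its own (of 446), 45 with the row as a block, and 46 with normexp and with the run as a block. It was 2 and 1 when the first or the second hypertrophic array was left out, 13 and 45 when the first or the second proliferative array was, and 29 with either prehypertrophic array left out. It was 5 (0 to 10 in the other settings) for prehypertrophic minus proliferative and 3 (1 to 6) for hypertrophic minus prehypertrophic. The cause of these changes was not tested. Without a filter on dim miRNAs, most of the spreads were 0 at the floor, so its p-values are unreliable. The arm balance of miR-214 could not be computed, since miR-214* was not well above background.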
